A study of Mus musculus with 13 samples.

Results

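The cytosolic ribosome is built from ribosomal RNA and proteins, in a small subunit (Rps genes), which reads the messenger RNA, and a large subunit (Rpl genes), which joins the amino acids. Ribosomal protein genes are among the most abundantly transcribed genes of a growing cell. Their mRNAs typically start with a C followed by a run of pyrimidines, the 5′ terminal oligopyrimidine tract, through which the mTORC1 kinase pathway controls their translation. Dividing progenitors of the embryonic brain are known for high ribosome production.

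The cytosolic ribosomal protein genes were taken by name, as the protein-coding genes whose GENCODE M21 symbol is Rpl or Rps with a number (with a suffix such as a, l or x where present) or is Rpsa, Rplp0, Rplp1 or Rplp2. This gave 83 of the 37785 genes counted, 32 of the small and 51 of the large subunit, and all 83 were in the files. They lay on 19 chromosomes, with 14 on chromosome 7 and 4 on the X chromosome. After a filter on low counts 80 could be tested, while Rpl10l, Rpl39l and Rpl3l did not pass it.

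The libraries were bulk RNA-seq of brain cells of wild-type C57BL/6 mice that had been enriched with magnetic beads against PDGFRα (the receptor that marks oligodendrocyte precursor cells, the progenitors of myelin-forming glia). Ages were embryonic day 16 (E16, 3 libraries), postnatal day 12 (P12, 3), day 80 (P80, 3, with 81 days in the age field of some) and day 310 (P310, 4, with slightly lower ages in the age field). The adult samples, P80 and P310, were also treated with myelin removal beads, which the E16 and P12 samples were not, so that this step and adult age cannot be told apart. The series gives 3 to 4 mice per age without saying whether each library is 1 mouse, and p-values measure the spread between these samples only.

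Totals ran from 8669521 to 25810455 gene counts per library. Counts of P12 replicates 2 and 3 were closer than those of any other pair of 1 age, with a chi-square of 2.34 for each degree of freedom over coding genes (16.6 to 179 in the other pairs) and of 6.47 over the ribosomal protein genes (13.2 to 126). They still differed by more than counting noise, but so little beside other pairs that they were summed and counted as 1 sample (P12 replicate 2-3), which left 12 samples and n = 2 at P12. Pdgfra itself was measured at 33.0 ± 6.96 CPM (read counts scaled by library size; SD, n = 3) in the E16 samples, and at 70.1 ± 33.2 for P12 (n = 2), 37.1 ± 18.4 for P80 (n = 3) and 30.7 ± 25.8 for P310 (n = 4). Summed CPM of 10 markers of oligodendrocyte precursors, Pdgfra among them, were 317 ± 36.7 at E16 and 312 ± 22.7 at P12. They were 185 ± 23.1 at P80 and 188 ± 75.4 at P310. The median log2 change of these markers from E16 to P12 was 1.45. Markers of other cells were present at every age and differed between ages, and some also between samples of 1 age. Summed CPM of 10 immature neuron markers were 6075 to 7188 at E16 and 96.6 to 279 in all later samples. Summed CPM of 10 endothelial markers were 42.5 to 68.1 at E16 and 4291 to 8140 later. Those of 10 oligodendrocyte markers were 61.3 to 80.1 at E16, 8235 in P12 replicate 1, 67509 in P310 replicate 2 and 331 to 918 in the other samples. None of the markers of these lists was at 0 in all samples. Their part in the results below was not tested, and in bulk RNA fewer cells of a type cannot be told apart from less RNA per cell.

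Sequences are shown in a pair of sets, because the first carries the mark by which these mRNAs are known and the second takes most of the counts of one of the genes. The first holds the 6 genes that were called lower at P12 than at E16 (below) and had an entry in the RefSeq promoter table (GRCm38.p6). Each run holds the 15 bases before and the 15 bases from the annotated start, 5′ to 3′ on the strand of the gene. Capitals mark a C followed by 5 or more letters that are C or T and beginning within 10 bases of the annotated start, on the strand of the gene only.
Rpl7a (chr2:26910792-26910821, +): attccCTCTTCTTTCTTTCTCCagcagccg
Rpl18 (chr7:45718056-45718085, +): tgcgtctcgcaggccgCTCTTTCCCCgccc
Rps2 (chr17:24720048-24720077, +): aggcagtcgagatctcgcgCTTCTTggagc
Rps26 (chr10:128626492-128626521, −): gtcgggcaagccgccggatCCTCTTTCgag
Rplp0 (chr5:115559452-115559481, +): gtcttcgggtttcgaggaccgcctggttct
Rpl4 (chr9:64173372-64173401, +): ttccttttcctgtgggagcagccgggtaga

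The tract was found at 4 of these 6 starts. Among the 63 members in the table it was found in 34 (54.0%), against 21.9% of the 27025 genes with an entry. The 7-letter motif CCGGAAG, the core bound by ETS factors, was searched on both strands of the whole 300-base window (250 bases before and 50 from the start). It was in 26 of the 63 (41.3%), against 9.93% of all genes. On the opposite strand its letters, CTTCCGG, begin with pyrimidines, so that a match can overlap a tract. The annotated starts are not mapped start sites of these cells, and a match is a description only. Among called genes without an entry were Rpl7 and Rpl29.

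The second set holds the small nucleolar RNAs (snoRNAs, guides of ribosomal RNA modification) that lie inside Rps3 (chr7:99477896-99483738, minus strand). The sequences are those of GENCODE M21 (GRCm38), with the C box (TGATGA, its first match) and the D box (CTGA, its last match) in capitals, the motifs of box C/D snoRNAs.
Snord15b (chr7:99479563-99479707, −): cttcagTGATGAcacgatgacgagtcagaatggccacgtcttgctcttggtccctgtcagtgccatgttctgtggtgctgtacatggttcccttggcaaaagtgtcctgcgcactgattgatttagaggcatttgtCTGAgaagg
Snord15a (chr7:99482785-99482932, −): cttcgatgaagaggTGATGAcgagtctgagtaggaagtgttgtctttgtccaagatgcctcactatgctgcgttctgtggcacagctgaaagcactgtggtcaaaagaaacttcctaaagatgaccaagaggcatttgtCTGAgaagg

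Snord15b, of 145 bases, lay wholly inside the exons over which Rps3 was counted, and Snord15a, of 148 bases, did not. The last 21 bases of the 2 were identical.

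As a group, the ribosomal protein genes took most counts at E16. They held 1.45%, 1.77% and 3.13% of all gene counts in the 3 E16 samples, 1.29% and 0.859% in the 2 P12 samples, 0.849%, 0.752% and 0.763% at P80, and 0.601%, 1.17%, 0.840% and 0.628% at P310. Every E16 sample lay above every later sample, while P12, P80 and P310 overlapped. The means were 2.12% ± 0.893 (SD, n = 3), 1.07% ± 0.302 (n = 2), 0.788% ± 0.0535 (n = 3) and 0.809% ± 0.262 (n = 4). E16 replicate 3 was the highest E16 sample, with a median of 1.92 times the mean of the other 2 over the tested genes, and led its age in 79 of 80. P310 replicate 2, the sample with the oligodendrocyte markers at 67509 CPM, led P310 in 75 of 80, with a median of 2.31 times the mean of the other 3. P12 replicate 1 was above P12 replicate 2-3 in 78 of 80, with a median ratio of 1.58.

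Transcripts of the mitochondrial genome rose over the same samples, from 1.52% to 3.54% of counts at E16 to 18.3% to 34.4% at P310. Of the counts outside mitochondrial genes, the ribosomal protein genes held 1.47% to 3.19% at E16, 0.958% and 1.35% at P12, 0.944% to 0.982% at P80 and 0.832% to 1.65% at P310. On this base P310 replicate 2 exceeded E16 replicate 1, and the 3 P80 samples lay closest together. Both bases include Rps3, most of whose P80 counts were also those of a snoRNA (below). Less Rps3, the genes held 2.07% ± 0.874 of all gene counts at E16 (SD, n = 3) and 1.003% ± 0.330 at P12 (n = 2). At P80 they then held 0.666% ± 0.0920 (n = 3) and at P310 0.7595% ± 0.257 (n = 4). Shares less Rps3 were not computed on the base without mitochondrial genes.

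**Figure D1:**
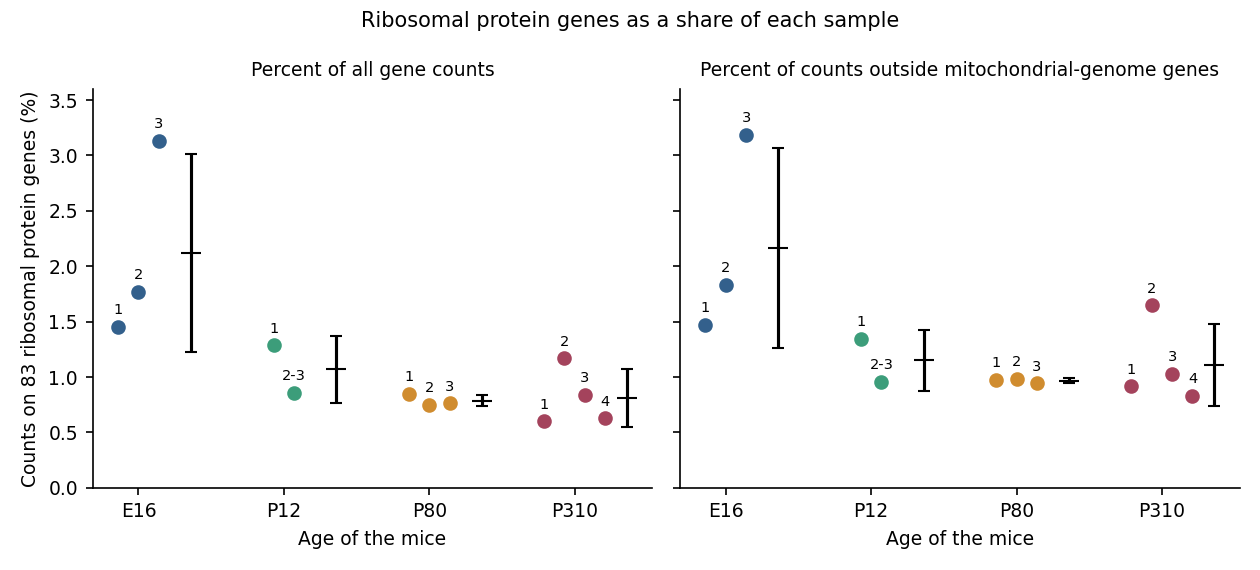
Counts on the 83 ribosomal protein genes as a percent of each sample's gene counts, by age (left, of all gene counts; right, of counts outside mitochondrial-genome genes). Points are samples with their replicate number, and bars give the mean ± SD; E16 replicate 3 (3.13% on the left) and P310 replicate 2 (1.65% on the right) stand above the others of their age.

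Between E16 and P12, 79 of the 80 tested genes had a lower fitted level at P12, with a median log2 change of -0.95, against 0.09 over all 21170 genes tested. By edgeR's quasi-likelihood test with Benjamini-Hochberg adjustment over all genes, 9 fell and 0 rose. Of all genes tested 27.2% were called, 10.5% as lower and 16.7% as higher. The 9 are 11.2% of the genes tested, a share near the 10.5% of all genes called as lower, so the count is no result particular to them. Both P12 samples were below all E16 samples in 47 of the 80 (58.8%), against 30.9% of all genes tested. Counted in either direction, E16 and P12 samples did not overlap in 58.8% of these genes, against 61.8% of all genes tested. The ribosomal protein genes were thus separated no more often than genes in general, and differed from them in the shared direction. The sizes of change lay close together, with quartiles of -1.09 and -0.79. These genes also moved together between replicates. The median of their log2 CPM in a sample had a pooled SD between replicates of 0.497. Counts of genes in 1 direction are therefore not counts of independent genes. The median was -0.90 over the 32 small subunit genes and -0.98 over the 48 of the large subunit, with 3 and 6 called (9.38% and 12.5%).

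The count rested on single samples. Without E16 replicate 3, 1 gene (Rpl7a) was called (1.25%, against 7.31% of all genes called as lower) and the median was -0.55, with 77 of 80 still below 0. Without P12 replicate 2-3, 0 were called (against 4.83% of all genes), at a median of -0.69 and with the lone P12 sample assumed to vary like the other ages. Without P310 replicate 2, which is in neither age but enters the shared estimate of spread, 41 were called (51.2%, against 12.8% of all genes called as lower), and all 9 were among them. With both E16 replicate 3 and P310 replicate 2 left out, 15 were called (18.8%, against 9.64%), with 7 of the 9 among them. The share of these genes called was thus below that of all genes in some fits and above it in others.

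**Figure D2:**
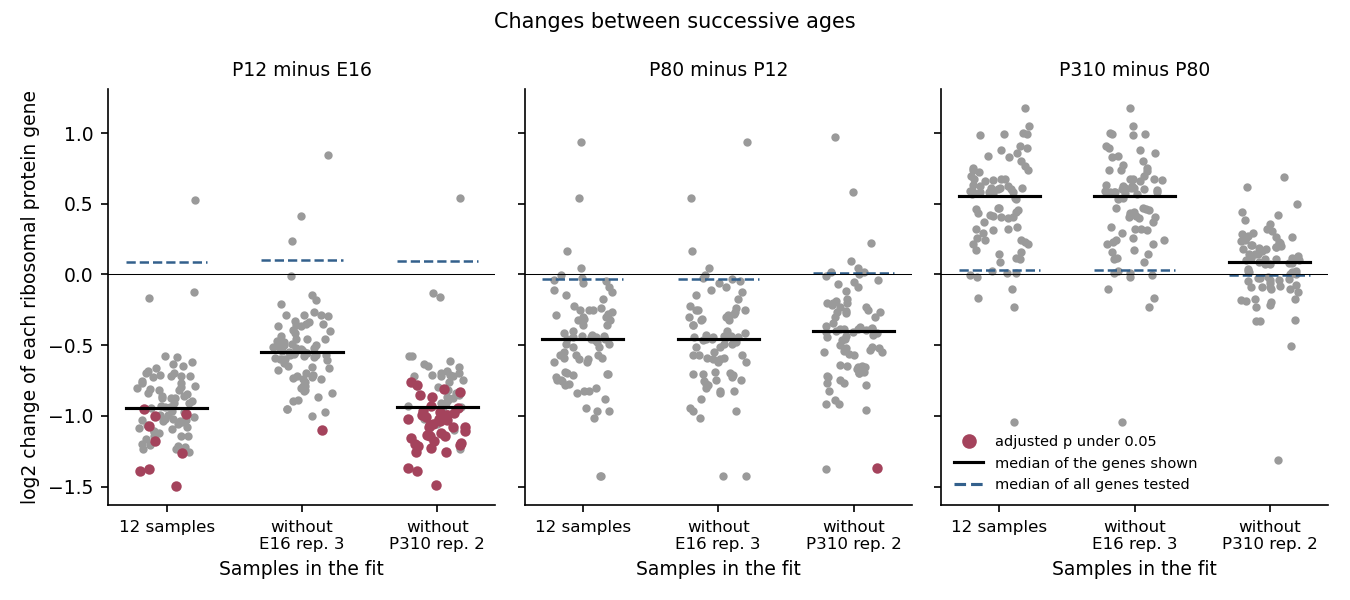
log2 change of each of the 80 tested ribosomal protein genes between successive ages (columns), fitted on all 12 samples, without E16 replicate 3 and without P310 replicate 2. Solid lines are the medians of these genes and dashed lines those of all genes tested; in the first comparison the median is -0.95 with all samples and -0.55 without E16 replicate 3, and in the last it goes from 0.55 to 0.08 without P310 replicate 2.

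Among the 9 that fell were Rps2 and Rps26 of the small subunit and Rpl4, Rpl7, Rpl7a, Rpl18, Rpl29 and Rplp0 of the large. Rps2 (chr17:24718116-24721929) helps form the channel through which mRNA enters the ribosome. It was measured at 170.4, 187 and 295 CPM at E16, 126 and 81.6 at P12, 59.4, 51.0 and 48.4 at P80, and 63.1, 122, 78.6 and 50.3 at P310. It was lower in both P12 samples than in any E16 sample and lower still in all P80 samples, with a fitted log2 change from E16 to P12 of -1.07 (SE 0.36, adjusted p = 0.037).

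Rps26 (chr10:128624534-128626747) lies where the mRNA leaves the small subunit. It stood at 111, 112 and 225 CPM at E16, 70.8 and 44.4 at P12, 30.2, 24.6 and 30.7 at P80, and 27.8, 86.4, 42.2 and 28.2 at P310. Its E16 samples were above all later samples. The fitted change of Rps26 from E16 to P12 was -1.37 (SE 0.48, adjusted p = 0.0498), and it kept its call in 14 of 24 alternatives.

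Rpl7a (chr2:26910764-26913318), a large subunit protein whose gene holds 3 snoRNAs, had the largest fall. Its CPM were 211, 252 and 451 at E16, 127 and 88.9 at P12, 87.5, 77.7 and 106 at P80, and 107, 125, 86.9 and 67.5 at P310. All E16 samples were above all later ones, and P12, P80 and P310 overlapped. The fitted change was -1.50 (SE 0.35, adjusted p = 0.0046) from E16 to P12, and it was called in 23 of 24 alternatives, the exception being the fit without P12 replicate 2-3.

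Rpl4 (chr9:64173375-64178666) lines the tunnel through which the new protein leaves, and its gene holds 5 snoRNAs. Its CPM were 458, 504 and 712 at E16, 327 and 231 at P12, 194, 173 and 204 at P80, and 160.2, 305, 222 and 157 at P310. Rpl7 (chr1:16101295-16104662), a large subunit protein with the paralog Rpl7l1, was at 292, 318 and 539.9 CPM at E16, 227 and 159 at P12, 135, 141 and 101 at P80, and 147, 231, 172 and 128 at P310. In both genes the E16, P12 and P80 samples formed 3 ranges that did not overlap, while P310 overlapped P12 and P80. The fitted changes from E16 to P12 were -1.001 (SE 0.30, adjusted p = 0.024) for Rpl4 and -0.99 (SE 0.32, adjusted p = 0.032) for Rpl7.

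Rpl29 (chr9:106429454-106431568), a small protein of the large subunit that mice can live without, was at 397, 419.6 and 708 CPM at E16, 296 and 153 at P12, 129, 121 and 144 at P80, and 141, 253, 151 and 108 at P310. Rpl18 (chr7:45715457-45720836), another large subunit protein, was at 107, 130.3 and 219 CPM at E16, 94.3 and 63.5 at P12, 65.8, 57.7 and 50.7 at P80, and 57.3, 80.3, 75.2 and 56.4 at P310. The E16 and P12 samples of both genes did not overlap, and the gap relative to the level was the narrowest of the 9 in Rpl18. The fitted changes were -1.18 (SE 0.38, adjusted p = 0.03) and -0.95 (SE 0.31, adjusted p = 0.035).

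The stalk of the large subunit, made of Rplp0, Rplp1 and Rplp2, recruits the elongation factors. Rplp0 (chr5:115559467-115563727), its base, had 671, 772 and 1236 CPM at E16, 482 and 264 at P12, 155, 101 and 161 at P80, and 168, 264, 175 and 113 at P310. It fell by 1.26 on the log2 scale from E16 to P12 (SE 0.38, adjusted p = 0.024). Its fitted change from P12 to P80 was -1.42 (SE 0.36, adjusted p = 0.08), and all 3 P80 samples were below both P12 samples. Among all ribosomal protein genes it had the smallest adjusted p over the 4 ages together (3e-05).

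Rplp1, an acidic stalk protein, was at 282, 336 and 588 CPM at E16, 282 and 147 at P12, 177, 151 and 187 at P80, and 140.3, 774, 202 and 130 at P310. Its highest value was in P310 replicate 2, above every E16 sample, and its change from E16 to P12 was -0.91 (SE 0.73, adjusted p = 0.40). Rplp2, the other acidic protein, was at 219.5, 269 and 437 CPM at E16, 163 and 99.3 at P12, 65.2 to 86.5 at P80 and 62.0 to 216 at P310, with a change of -1.23 (SE 0.49, adjusted p = 0.084).

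Rpsa, the small subunit protein also known as the laminin receptor, was at 622, 749 and 946 CPM at E16, 453 and 246 at P12, 221, 200 and 180 at P80 and 259.9, 894, 264 and 177 at P310. Rps27a, which is made as a fusion to ubiquitin, was at 106, 150 and 293 CPM at E16, 109.7 and 65.4 at P12, 57.9 to 72.7 at P80 and 59.8 to 199.6 at P310. Neither passed the test between E16 and P12, with changes of -1.14 (SE 0.59, adjusted p = 0.18) and -1.06 (SE 0.51, adjusted p = 0.15). In both, P310 replicate 2 was by far the highest P310 sample.

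**Figure D3:**
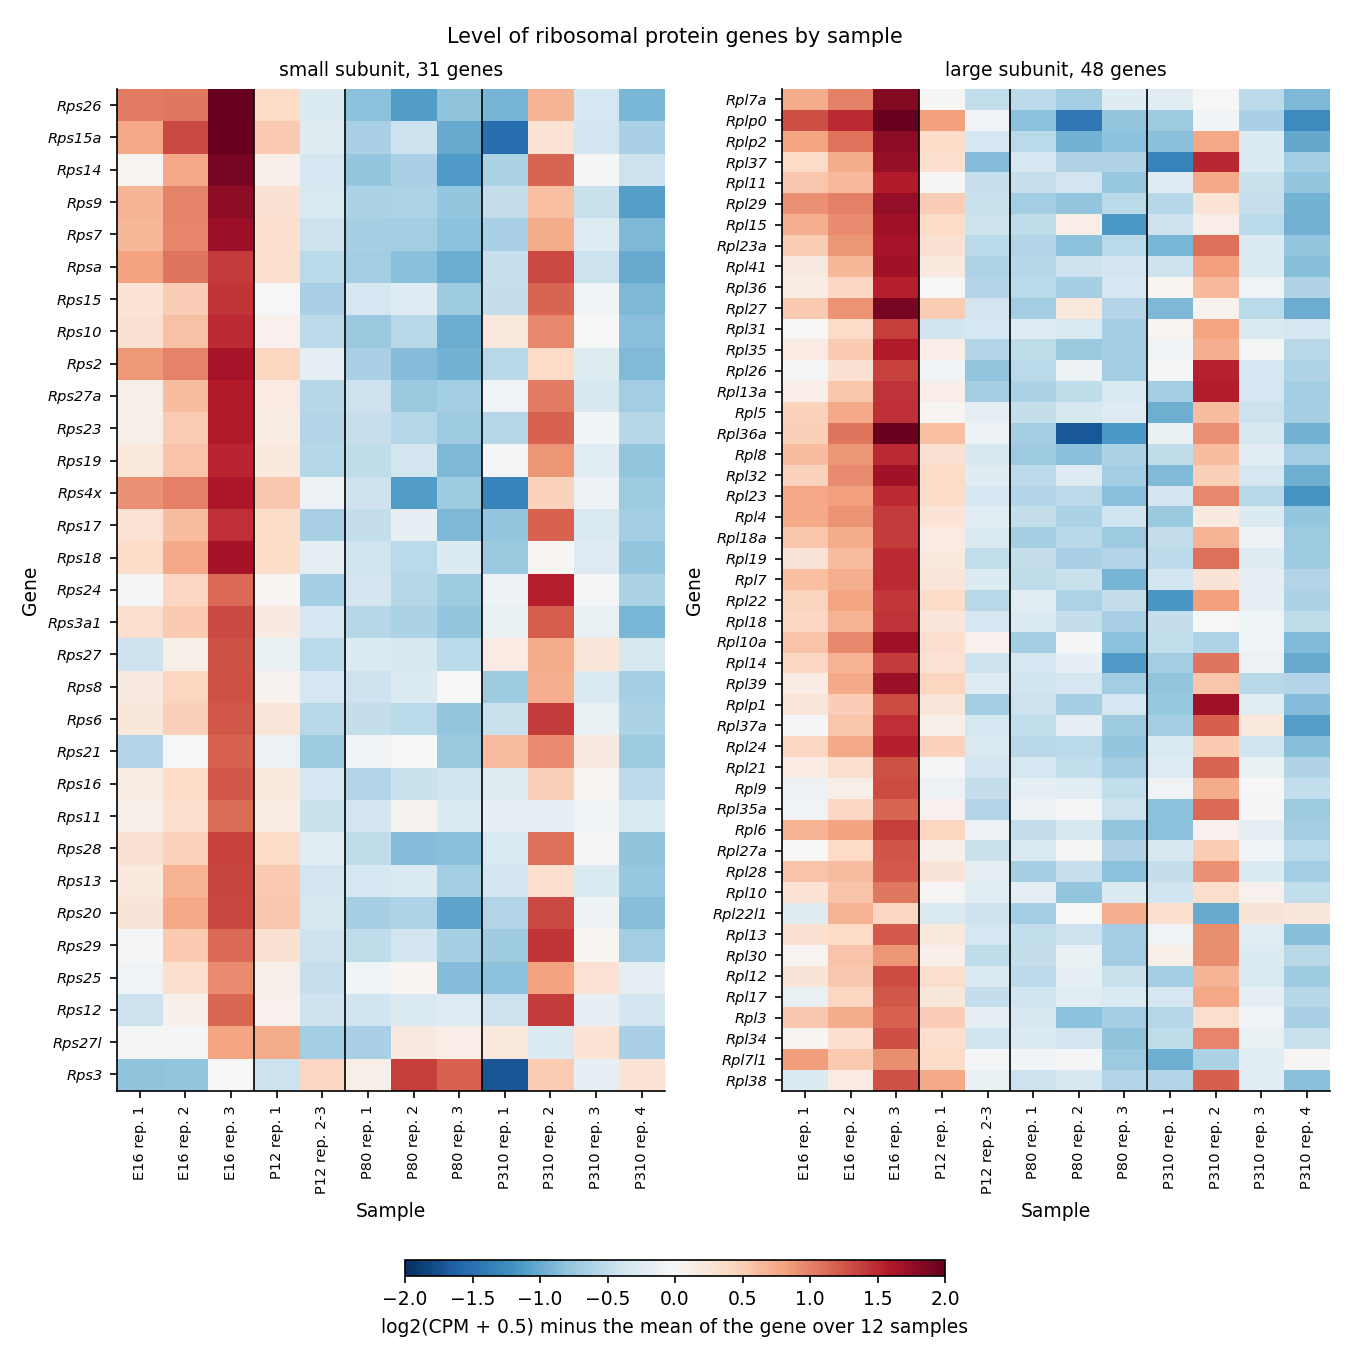
Level of 79 of the 80 tested ribosomal protein genes (rows; italic labels) in the 12 samples (columns, grouped by age), as log2(CPM + 0.5) minus the mean of the gene over the samples; colours are capped at 2 in either direction. E16 replicate 3 is the highest E16 sample in 78 of the 79 rows, P310 replicate 2 is the highest P310 sample in 74, and Rps3 (bottom row of the left panel) is highest at P80.

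From P12 to P80 no ribosomal protein gene was called (0 of 80, against 1.42% of all genes tested, 1.02% as lower). The fitted level was lower at P80 in 76, with a median of -0.46 against -0.03 over all genes. The pooled SD between replicates of the sample median, 0.497, is of a similar size. An unadjusted p under 0.05 was found in 8 (10%, against 9.75% of all genes). DESeq2 called 1, Rplp0, as lower (1.25%, against 1.73% of all genes). The median moved to -0.11 when P12 replicate 1 was left out and to -0.79 without P12 replicate 2-3. Rpl36a, a large subunit protein with a gene on the X chromosome, had the largest fitted difference of -1.43 (SE 0.53, adjusted p = 0.34), from 52.3 and 32.0 CPM at P12 to 21.3, 10.3 and 15.3 CPM at P80.

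From P80 to P310 no ribosomal protein gene was called by edgeR or DESeq2 (0 of 80), and the background was 0.0% of all genes, with 0 of 21170 called. The fitted level was higher at P310 in 74, with a median of 0.55 against 0.03 over all genes. This too is of a size similar to the 0.497 between replicates. An unadjusted p under 0.05 was found in 4 (5%, against 5.49% of all genes). Without P310 replicate 2 the median was 0.08 and 52 of 80 were above 0. The ranges of the P80 and P310 samples did not overlap in 1 of the 80 genes (1.25%, against 4.86% of all genes).

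Over the 4 ages together, 38 of the 80 were called (47.5%, against 37.1% of all genes), and the mean was highest at E16 in all 38. The mean was highest at E16 in 79 of the 80 tested and lowest at P80 in 72. The lowest E16 sample was above every P80 sample in 71 genes (88.8%, against 30.0% of all genes) and above every later sample in 20 (25%, against 20.3%). With P310 replicate 2 not counted it was above every later sample in 44 (55%, against 22.5%). Among the smallest adjusted p-values after that of Rplp0 were those of Rpl7a (0.00026), Rps2 (0.00041), Rpl4 (0.00051) and Rpl29 (0.00055). The call was made for 20 genes without E16 replicate 3 (25%, against 27.6% of all genes) and for 68 without P310 replicate 2 (85%, against 40% of all genes). All 20 were among the 38.

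Rps3, a small subunit protein at the mRNA entry that also has a role in DNA repair, was the exception to the common direction. It was at 353, 357 and 620.1 CPM at E16, 456 and 820.4 at P12, 668, 1601 and 1388 at P80, and 188, 879, 551 and 745 at P310. Its fitted change from E16 to P12 was 0.53 (SE 0.56, adjusted p = 0.53), its E16 and P12 samples overlapped, and its highest level was at P80. Of its counts over the 13 libraries, 77.2% were also those of Snord15b, whose sequence is given above.

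Reads on Snord15b made up 50.4%, 40.5% and 34.8% of the Rps3 counts at E16, 64.9%, 90.2% and 88.5% in the 3 P12 libraries, 83.3%, 94.6% and 93.6% at P80, and 44.7%, 48.4%, 73.4% and 89.1% at P310. Less these counts, Rps3 was at 193, 237 and 469 raw CPM (scaled by the library total alone) at E16, 176, 97.7 and 94.7 at P12, 130.2, 80.03 and 91.0 at P80 and 90.9, 286, 144 and 79.6 at P310. Every E16 library was then above every P12 and P80 library. Fitted with such counts removed from all ribosomal protein genes, Rps3 changed by -1.09 from E16 to P12 (SE 0.68, adjusted p = 0.27), and 80 of 80 genes had the lower level at P12. The number called stayed at 9.

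Snord15b alone stood at 161 to 250.2 raw CPM at E16, 326 to 896 at P12, 647 to 1391 at P80 and 73.4 to 654 at P310. Snord15a, which does not add to the Rps3 counts, was at 38.0 to 81.04 at E16, 66.0 to 175 at P12, 117 to 209 at P80 and 14.4 to 111 at P310. For both snoRNAs the P80 libraries lay above all E16 libraries, and P310 replicate 1 held the lowest value of all. Whether the reads came from mature snoRNA or from unspliced Rps3 RNA was not tested.

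**Figure D4:**
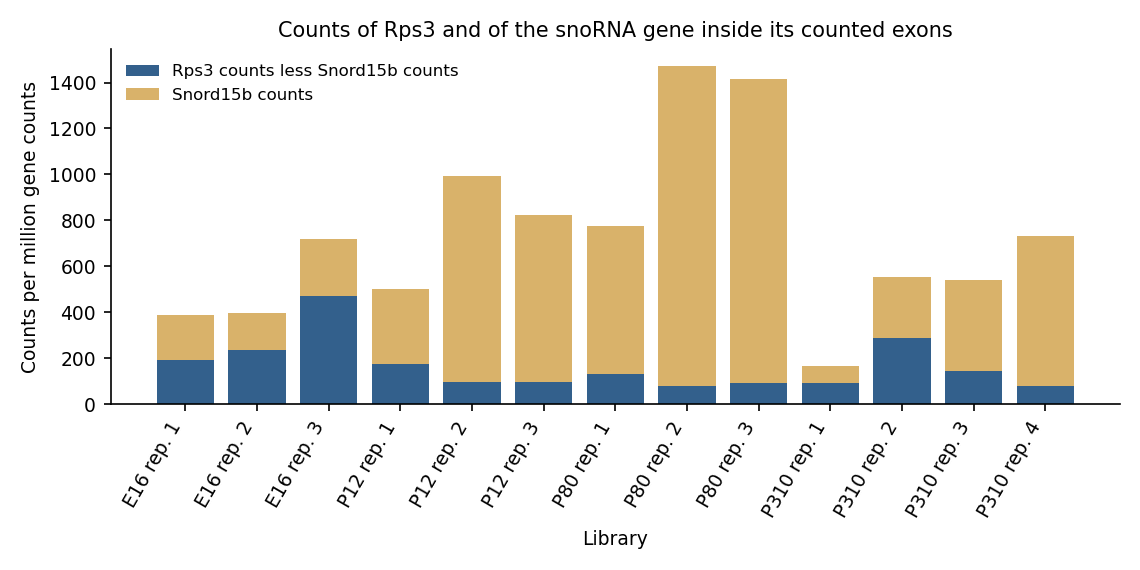
Counts of Rps3 in each of the 13 libraries, in raw CPM, split into the counts also given to Snord15b (upper, yellow) and the rest (lower, blue). The rest is 193 to 469 in the E16 libraries and 79.6 to 286 in the others, and the Snord15b part reaches its highest value, 1391, in a P80 library.

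Rps3 was the clearest case of a wider pattern. Of the 83 genes, 30 held 58 snoRNA genes, and in 24 a total of 31 small RNA genes lay wholly inside the counted exons. A single small RNA gene took over 10% of the counts in 3 genes, which were Rps3, Rpl5 (19.7% on Snord21) and Rpl19 (11.6% on the annotated miRNA gene Gm27597). Rpl13a held Mir5121 (7.91%) and Snord33 (6.20%), which overlap each other. Counted exons also hold retained introns and alternative ends, so the principal mRNA was a median 43.1% of the counted length, from 10.2% to 100%. The 43 tested genes whose counted exons overlap no other counted gene had a median change from E16 to P12 of -0.97, with 5 called (11.6%). The 37 others had -0.88, with 4 called (10.8%). Both shares are near the 10.5% of all genes called as lower.

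Processed pseudogenes add to this. GENCODE M21 names 300 ribosomal protein pseudogenes, of which 298 bear the name of a member, led by Rpl31 and Rps12 with 24 each, and 14 of the 300 were among the genes counted. A read that maps to several places was counted at each counted gene it hit. The 20 tested members with no pseudogene so named had a median change from E16 to P12 of -0.95 with 2 called (10%). The 60 others had -0.95 with 7 called (11.7%), and 10.5% of all genes were called as lower. The split goes by name only. GENCODE M21 holds 9941 processed pseudogenes, and copies under other names were not looked for. It therefore cannot tell members with copies from members without.

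Levels between genes are compared per kb of counted exon, as the mean CPM over 12 samples. The median tested gene was at 61.2 CPM per kb. The highest were Rplp1 (567), Rpl23a (315), Rpl13a (243), Rplp0 (229) and Rpl36 (228). Per kb of the principal mRNA Rpl26 was the highest, at 573, and the median was 155. The lowest 5 were all paralogs of other members, Rpl22l1 at 2.89 and Rps27l at 5.57 CPM per kb and the 3 that were not tested.

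Rpl10l, a retrogene of Rpl10 known from testis, had 0 counts in all 13 libraries, where 3 counts, the limit that a count of 0 allows, are 0.116 to 0.346 CPM. Rpl39l, also known from testis, had 8 counts in all and Rpl3l, known from muscle, had 28. These limits cover counting error only, as PCR copies are not independent molecules. The parent genes Rpl10, Rpl39 and Rpl3 had 15711, 5626 and 51280 counts.

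The expressed paralogs were set against their parents within each sample, as the log2 of (paralog count + 0.5)/(parent count + 0.5), with an exact two-sided permutation test over the 277200 arrangements of the samples and adjustment over the 5 pairs tested. Rpl22l1 stood at 2.90%, 4.66% and 2.46% of Rpl22 at E16, 2.96% and 5.09% at P12, 3.25%, 7.46% and 11.4% at P80, and 13.7%, 1.22%, 6.54% and 8.81% at P310. The ages overlapped (exact permutation p = 0.64, adjusted 0.64). Rpl7l1 stood at 9.93% to 17.2% of Rpl7 at E16, 16.1% and 17.3% at P12, 16.6% to 19.9% at P80 and 7.73% to 22.2% at P310 (exact permutation p = 0.36, adjusted 0.59), and Rps27l at 6.33% to 11.0% of Rps27 at E16, 7.23% and 16.3% at P12, 6.09% to 13.7% at P80 and 4.05% to 8.92% at P310 (exact permutation p = 0.49, adjusted 0.61).

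Rps4l, a transcribed processed pseudogene of Rps4x and so not a member, stood at 6.08%, 4.75% and 6.12% of Rps4x at E16, 10.6% and 13.1% at P12, 15.6%, 18.7% and 19.6% at P80, and 30.5%, 6.14%, 16.1% and 14.5% at P310. The E16, P12 and P80 samples did not overlap. The test gave an exact permutation p of 0.045, adjusted 0.23, and an adjusted p of 0.019 without P310 replicate 2. As reads can be shared between the copy and its parent, this ratio is uncertain. Rpl3l was counted in 5 of 13 libraries, so its ratio to Rpl3 (exact permutation p = 0.12, adjusted 0.30) mostly follows the parent's count.

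**Figure D5:**
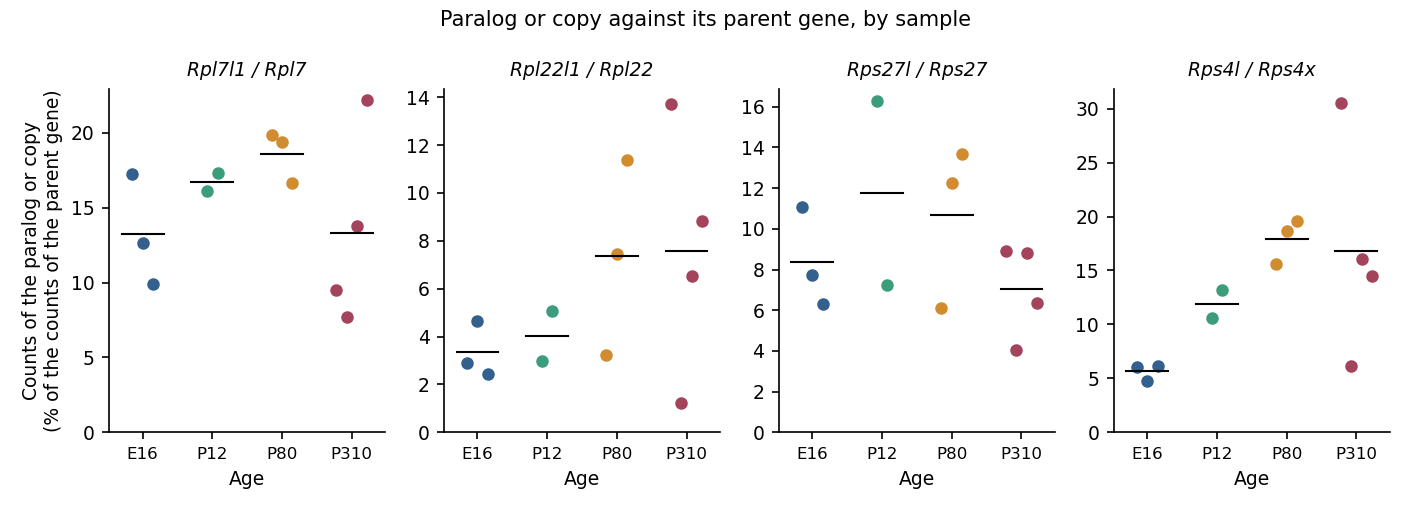
Counts of a paralog (Rpl7l1, Rpl22l1, Rps27l) or copy (Rps4l) as a percent of the counts of its parent gene, per sample (points) and mean of each age (lines). Rps4l is 4.75% to 6.12% of Rps4x at E16 and 15.6% to 19.6% at P80, and the other pairs overlap between ages.

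Some genes took unequal shares of the ribosomal protein counts across samples, a measure that does not depend on the total. The highest share over the lowest was a median of 1.98 times over the 80 genes, from 1.26 for Rpl12 to 9.47 for Rpl22l1. It exceeded 4 in 6 genes, chosen here after their values were seen, which were Rpl22l1, Rps3, Rpl7l1, Rps21, Rplp0 and Rpl36a. The share of Rplp0 in the pool went from 4.85% ± 0.264 (SD, n = 3) in E16 samples through 3.73% ± 0.557 (n = 2) in P12 samples to 1.84% ± 0.516 (n = 3) in P80 samples, with 1.92% ± 0.432 (n = 4) in P310 samples. Rps21, a small subunit protein, went the other way, at 0.278% ± 0.0716, 0.326% ± 0.00572, 0.468% ± 0.118 and 0.586% ± 0.251. As Rps3 took 2.25% to 19.6% of the pool, the shares of the others are lowered where it is high.

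Other genes of the translation machinery were taken from lists. Of 7 other cytosolic ribosomal and ribosome-associated genes, 4 fell from E16 to P12 (57.1%, against 10.5% of all genes) and 0 rose. Their median was -1.06. Rack1, a scaffold on the small subunit, fell from 401 ± 142 CPM (SD, n = 3) to 143 ± 44.8 CPM (n = 2; log2 change -1.49, SE 0.31, adjusted p = 0.0022), and Naca, which binds new proteins at the exit tunnel, by 1.48 (SE 0.38, adjusted p = 0.0087). Of 10 elongation factor genes 4 fell (40%, against 10.5% of all genes), with a median of -1.11. Eef1g, a subunit of the exchange factor of eEF1A, was at 376, 368 and 522 CPM at E16 and 144 and 94.8 at P12, and fell by 1.82 (SE 0.30, adjusted p = 0.00035). Eef2, which moves the ribosome along the mRNA, fell from 1698 ± 96.0 to 922 ± 147 CPM. These lists had 3 of 7 and 2 of 10 genes called as lower without E16 replicate 3, against 7.31% of all genes. Without P310 replicate 2 they had 5 and 7, against 12.8% of all genes. Without P12 replicate 2-3 their medians were -0.78 and -0.85.

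Of 35 initiation factor genes, 12 fell (34.3%, against 10.5% of all genes) and 0 rose, with a median of -0.74. Eif4a1, the helicase of the cap-binding complex, fell from 606 ± 107 to 193 ± 47.0 CPM (log2 change -1.65, SE 0.29, adjusted p = 0.00053). From P12 to P80, Pabpc1, the poly(A)-binding protein of the cytoplasm, was the only gene of these lists to pass, with 433 and 311 CPM at P12 and 155, 158 and 191 CPM at P80 (log2 change -1.15, SE 0.21, adjusted p = 0.012). Of 32 ribosome biogenesis genes, 13 fell from E16 to P12 (40.6%, against 10.5% of all genes) and 0 rose, with a median of -0.96. Nop58 and Nop56, core proteins of box C/D snoRNA particles, fell by 1.70 (SE 0.29, adjusted p = 0.00044) and 1.55 (SE 0.31, adjusted p = 0.0015). Without E16 replicate 3, 6 of 35 initiation factors and 8 of 32 biogenesis genes were called as lower, against 7.31% of all genes. Without P310 replicate 2, 15 and 14 were, against 12.8% of all genes. Without P12 replicate 2-3 the medians of these lists were -0.52 and -0.97.

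Of 78 mitochondrial ribosomal protein genes, 6 fell from E16 to P12 (7.69%, against 10.5% of all genes; Mrps17, Mrps5 and Mrpl19 had the smallest adjusted p) and 0 rose, with a median of -0.74. Without E16 replicate 3, 0 were called (against 7.31% of all genes called as lower), and 8 without P310 replicate 2 (against 12.8%). Without P12 replicate 2-3 the median of these genes was -0.56. From P80 to P310 their median was -0.08. Of 14 RNA polymerase I genes, 2 fell (Rrn3, an initiation factor, and Polr1c), with a median of -0.54. Without E16 replicate 3, 1 was called (against 7.31% of all genes), and 2 without P310 replicate 2 (against 12.8%). Without P12 replicate 2-3 their median was -0.62. The falls with all samples are 14.3% of the RNA polymerase I genes, near the 10.5% of all genes. Among 21 genes of mTORC1 and translation control, 2 rose and 2 fell, each 9.52% of the list, with a median of -0.16. That is near the 10.5% of all genes called as lower and below the 16.7% called as higher. Castor1 rose from 0.402 ± 0.348 to 18.7 ± 2.37 CPM and Deptor from 2.26 ± 0.821 to 19.1 ± 3.23 CPM, while Castor2 and Eif4ebp2 fell. Without P12 replicate 2-3 the median of this list was -0.26.

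Of 12 genes of the Myc family and its partners, 5 fell (41.7%, against 10.5% of all genes) and 1 rose. Mycn, a transcription factor of neural progenitors known to drive ribosomal genes, fell from 92.4 ± 11.7 CPM (SD, n = 3) at E16 to 10.3 ± 1.13 CPM (n = 2) at P12 (log2 change -3.17, SE 0.51, adjusted p = 0.00029). Mycl fell by 2.94 (SE 0.72, adjusted p = 0.0079), and Mxd4, an antagonist of Myc, rose by 1.11 (SE 0.21, adjusted p = 0.00096). Myc itself was at 10.8 to 12.2 CPM at E16 and 24.5 and 15.1 CPM at P12 and did not pass the test (adjusted p = 0.41). Of 14 snoRNA host genes 1 fell (Snhg5) and 1 rose (Snhg11, at 10.1 and 260.5 CPM in the P12 samples and 5.54 to 13.6 CPM at E16). Of 15 genes of ribosome quality control and stress 2 fell (Atf4, Abce1) and 2 rose (Eif2ak2, Cdkn1a). The falls are 7.14% and 13.3% of these lists, near the 10.5% of all genes. The rises, 1 of 14 and 2 of 15, stand beside 16.7% of all genes called as higher. Without E16 replicate 3 the rise of 1 snoRNA host was not called. The 2 falls of the quality control list then became 1 and the 5 of the Myc list 4, against 7.31% of all genes called as lower. Without P310 replicate 2 the falls of the host, quality control and Myc lists were 2, 2 and 5, against 12.8%. Their medians were -0.84, -0.51 and -0.78 with all samples and -0.95, -0.29 and -0.68 without P12 replicate 2-3.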

How the data were processed

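Total RNA of the sorted cells was made into libraries with the SMARTer Stranded Total RNA-Seq Pico kit, per the labels. The authors deposited unnormalised read counts of each gene, for which featureCounts 1.5.0-p1 was run against Ensembl release 92 exons (GRCm38), per the file headers: reads on several genes or with several alignments counted for each, a minimum overlap of 10 bases, no strand option. Trim Galore and TopHat2 2.1.1 are in the submitters' processing notes. Small RNAs, overlapping genes and copies therefore share counts.

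Names came from GENCODE M21 (37715 of 37785 genes). The members and lists were chosen with earlier results of these data known. Genes kept by filterByExpr were scaled by TMM and fitted with a mean per age on 12 samples by edgeR 4.0.16, with its quasi-likelihood test and robust dispersions (common biological coefficient of variation 0.513), with a threshold of 0.05 on Benjamini-Hochberg adjusted p. CPM are TMM-scaled unless raw totals are named. On simulated counts of 20514 genes for the step from E16 to P12, 58.9% of 16-fold and 24.2% of 4-fold changes were called, with 3 false calls. Only 95 genes of each size were changed there, drawn from genes of all levels and changed in all samples after E16. In the real step 27.2% of genes were called. The simulation therefore does not give the power for the ribosomal protein genes. Named genes were those called in a step (6 largest each way, without overlap), the 6 smallest adjusted p over all ages, the stalk, Rpsa, Rps27a, the paralog pairs, the 5 highest and lowest per kb, genes against the common direction, and up to 3 called genes per list; the other called genes, and further list genes, were named after their values were seen. Alternatives used DESeq2 1.42.0 and limma 3.58.1. 1 called gene is not reported by name here.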

Additional observations from a re-analysis of the deposited data

Results flagged for a closer look

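At P310, with 4 samples, 15 of the 80 tested ribosomal protein genes had a sample whose gap to the next was, as a share of the range, above the 95% critical value of Dixon's test, where chance gives about 1 in 20, and genes of a sample are not independent. The share of all genes flagged in this way was not computed, so the count is not shown to be particular to these genes. In 14 of the 15 the sample was P310 replicate 2 as the highest. Among the genes named, it stood out at 1291 CPM for Rpl13a (the others at 272 to 345), 774 CPM for Rplp1 (130 to 202), 894 CPM for Rpsa (177 to 264) and 37.3 CPM for Rpl39 (14.5 to 17.1). Rpl22l1 was flagged for the lowest value, 2.42 CPM in P310 replicate 2 against 6.37 to 6.86 CPM in the others. The same sample had the 67509 CPM of oligodendrocyte markers, whose part in these values was not tested.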

How the results depend on the processing

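From E16 to P12 the number of ribosomal protein genes called as lower, 9 (11.2%, against 10.5% of all genes), was 16 with RLE size factors (20%, against 10.9%), 23 with DESeq2 (28.7%, against 14.4%) and 27 with limma-voom (33.8%, against 18%). It was 49 with no filter on low counts (59.8%, against 8.27%) and 37 with P12 replicates 2 and 3 kept apart (46.2%, against 16.4%). The share was therefore near that of all genes with the settings reported and above it in these. With only the 2 ages in the fit the share was below that of all genes, at 10 called (12.5%, against 16.8%). With a stricter filter on low counts the number was 9 (11.2%, against 11.7%). It ran from 0 to 41 when 1 sample was left out, with 18 without E16 replicate 1 (22.5%, against 7.52%) and 15 without P310 replicate 4 (18.8%, against 10.8%), and was 15 without E16 replicate 3 and P310 replicate 2 together, a setting chosen after seeing the data. From P12 to P80, 2 were called as lower with no filter (2.44%, against 2.06% of all genes) and 1 with DESeq2 (1.25%, against 1.73%). With those samples left out together 1 was called (1.25%, against 1.26%), and 0 to 1 with 1 sample left out. From P80 to P310, 5 were called as higher and 1 as lower with no filter (7.32% in either direction, against 1.41% of all genes). Over all ages the 38 became 74 with no filter (90.2%, against 31.2%) and 20 to 68 with 1 sample left out. Without mitochondrial genes in the total the mean share was 0.967% at P80 and 1.11% at P310. The adjusted exact permutation p of Rps4l to Rps4x ran from 0.019 to 0.61 with 1 sample left out. The causes were not tested, and under these alternatives no called value changed direction.

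Replicate numbers were not shown to pair the samples. Of 15 same-numbered pairs 3 had a correlation of deviations over 0.1 (range -0.094 to 0.21). E16 replicate 3 and P12 replicate 1, of different numbers, reached 0.23. With 2 samples at P12 their deviations mirror each other, so the check cannot decide the pairing there. With the replicate number as a block, 3 genes were called from E16 to P12 (3.75%, against 9.66% of all genes) and 35 over all ages (43.8%, against 34.7%).

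With 2 samples at P12 many 4-fold changes went uncalled in the simulated counts, in which far fewer genes changed than were called in the data. Counts shared with small RNAs, overlapping genes or pseudogenes cannot be assigned.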
